A study of Mus musculus with 26 samples.

Results

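The replication-dependent histone cluster genes are the 66 gene rows, of 24682 in the deposited counts, whose symbols start with Hist1h, Hist2h, Hist3h or Hist4h, without the testis-specific Hist1h1t, Hist1h2ba and Hist1h2aa. By the family in their symbol, 5 are genes of the linker histone H1, 18 of H2A, 17 of H2B, 12 of H3 and 13 of H4, and 1 is named as a pseudogene, Hist3h2bb-ps. GENCODE also annotates Hist1h2al, counted here with H2A, as a processed pseudogene. The rule used no measured value. At least 1 read was counted for 58 of them. The other 8 (Hist1h2ao, Hist1h2ap, Hist1h2bq, Hist1h2br, Hist1h4m, Hist2h2aa1, Hist2h3c1 and Hist2h3c2) had 0 counts in every library. They share 61.6% to 100% of their 100-base stretches with transcripts of other genes, so 0 counts do not show that they are silent. Whether reads that match several genes went uncounted was not tested.

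Histones H2A, H2B, H3 and H4 form the protein core that DNA wraps around, and H1 binds the linker DNA between cores. The cluster genes supply these proteins when DNA is copied in S phase. Their mRNAs normally end in a stem-loop bound by SLBP, cut with the help of the U7 RNA, in place of a poly(A) tail, although some cluster genes can also make tailed transcripts. In testis, spermatogonia and preleptotene spermatocytes copy DNA, whereas pachytene spermatocytes, in meiotic prophase, and round spermatids, the haploid cells that follow, do not.

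RNA came from testes of C57BL/6 mice at postnatal day 21. In the Nkapl set, 2 libraries from Nkapl knockout testes stand against 3 from wild type. In the Sox30 set, 2 from Sox30 knockout testes stand against 3 from wild type. In the TGdel set, 3 from mice with the TGdel allele of Nkapl on both chromosomes stand against 2 from wild type. Nkapl is a testis-expressed relative of Nkap, and Sox30 is a transcription factor gene needed for spermatid development. Pachytene spermatocytes and round spermatids labelled Nkapl knockout and wild type have 2 libraries each, and their strain is not given. The extent of each deletion, the number of cells sorted and any pooling of animals were not stated, and p-values measure the spread between these libraries. Libraries are grouped by column heading, and repeated columns were used once. For 4 testis libraries (Nkapl-set wild type 3, Sox30-set wild type 3, TGdel 3 and TGdel-set wild type 2) the file record names the other group of the same set. All libraries are described as stranded total RNA libraries.

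The stem-loop is shown first because it sets these mRNAs apart from tailed ones. In GENCODE vM21 transcripts, the consensus of the histone 3′ stem-loop, 16 letters read on the transcript strand, occurred in 45 of the 66 genes and in 0.282% of other genes. The 45 members hold 8 spellings, of which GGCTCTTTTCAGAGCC, in 26 members, was the most frequent. The lines below give 1 member of each spelling, with the stem-loop in capitals, its GRCm38 position, and 5 transcript bases on either side.
Hist1h1c, chr13:23739512-23739527 (plus strand): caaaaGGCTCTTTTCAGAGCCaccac
Hist1h3f, chr13:23544932-23544947 (plus strand): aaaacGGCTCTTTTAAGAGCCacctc
Hist1h3g, chr13:23535889-23535904 (plus strand): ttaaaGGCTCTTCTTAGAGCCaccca
Hist2h2ac, chr3:96220418-96220433 (minus strand): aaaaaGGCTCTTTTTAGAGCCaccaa
Hist1h4c, chr13:23698089-23698104 (minus strand): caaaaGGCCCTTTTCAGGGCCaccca
Hist1h4i, chr13:22040966-22040981 (minus strand): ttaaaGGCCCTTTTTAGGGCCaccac
Hist1h4a, chr13:23760800-23760815 (minus strand): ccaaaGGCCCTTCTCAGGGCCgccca
Hist1h4j, chr13:21735437-21735452 (plus strand): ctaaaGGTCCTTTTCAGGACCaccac
The stem starts with GGCTC in the H1, H3 and H2A genes shown, with GGCCC in Hist1h4c, Hist1h4i and Hist1h4a, and with GGTCC in Hist1h4j. No match was found in the models of the other 21 members, which says only that the letters are not in those models.

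Promoters carried the letters named here in family-specific shares. Among 58 members with a promoter in the RefSeq table (250 bases before to 50 after the start, both strands), ATTTGCAT, the octamer element, stood in 19.0%, against 1.74% of all 32851 promoters. All 11 of these members were H2A (6 of 16) or H2B genes (5 of 15). CCAAT stood in 84.5% of member promoters, against 37.4% of all, but in 3 of 12 H4 promoters. TATAAA stood in 56.9%, against 13.6% of all. The 150 bases before the start of an abundant or rising member of each family show them in capitals (GRCm38.p6, RefSeq, 5′ to 3′ on the gene's strand).
Hist1h1a, chr13:23763518-23763667 (plus strand): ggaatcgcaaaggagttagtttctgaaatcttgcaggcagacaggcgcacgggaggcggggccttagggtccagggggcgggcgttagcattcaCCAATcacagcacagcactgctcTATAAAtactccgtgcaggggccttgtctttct
Hist3h2a, chr11:58954535-58954684 (plus strand): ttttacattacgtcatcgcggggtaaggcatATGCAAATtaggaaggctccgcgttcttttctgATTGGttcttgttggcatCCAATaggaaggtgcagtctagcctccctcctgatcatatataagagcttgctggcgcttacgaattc
Hist1h2bm, chr13:21721894-21722043 (plus strand): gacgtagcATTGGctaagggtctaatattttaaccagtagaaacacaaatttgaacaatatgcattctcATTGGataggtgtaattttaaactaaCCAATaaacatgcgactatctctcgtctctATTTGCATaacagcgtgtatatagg
Hist1h3h, chr13:21717478-21717627 (plus strand): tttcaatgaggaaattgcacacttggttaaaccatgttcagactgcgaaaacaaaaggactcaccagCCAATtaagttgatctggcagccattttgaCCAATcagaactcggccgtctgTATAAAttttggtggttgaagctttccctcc
Hist1h4k, chr13:21750554-21750703 (minus strand): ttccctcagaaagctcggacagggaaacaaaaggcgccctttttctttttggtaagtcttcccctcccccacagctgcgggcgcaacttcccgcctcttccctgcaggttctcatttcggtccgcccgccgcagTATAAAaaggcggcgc
The H2A and H2B promoters shown hold the octamer, the first as its reverse complement, beside CCAAT on both strands. The H3 promoter holds CCAAT at 2 places and TATAAA, the H1 promoter holds each of these once, and the H4 promoter holds TATAAA. In these 5 promoters no match overlaps with another.

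The targeted genes were checked first. Levels are in CPM, each gene's count scaled to a common library size with edgeR's scaling factors. Nkapl had 60.8 and 57.8 CPM in Nkapl knockout testes, against 74.9, 79.5 and 79.9 CPM in wild-type testes, and 24.6 and 23.6 CPM in knockout spermatids, against 88.4 and 90.3 CPM in wild-type spermatids. In spermatocytes it went against the labels, at 127 and 125 CPM in libraries labelled knockout, against 90.1 and 86.0 CPM in libraries labelled wild type (log2 0.51 ± 0.05 SE, edgeR quasi-likelihood test with Benjamini-Hochberg adjustment, adjusted p = 3.26e-09). Directions from the spermatocyte labels are therefore those of libraries labelled knockout. In TGdel testes Nkapl had 107, 118 and 126 CPM, against 101 and 103 CPM in wild type (adjusted p = 0.328). Sox30 had 44.7 and 61.5 CPM in Sox30 knockout testes, against 77.6, 86.2 and 72.4 CPM in wild type, all lower but not called (log2 -0.57 ± 0.15, adjusted p = 0.17). All 21 round spermatid markers tested were higher in wild-type spermatids than in wild-type spermatocytes (summed 11600 to 11800 CPM, against 4100 to 4290 CPM). Of 15 pachytene markers, 7 were also higher in wild-type spermatids and 3 were lower. Their sum was 14900 to 15400 CPM in wild-type spermatids, against 13600 to 13900 CPM in wild-type spermatocytes. The pachytene markers thus did not mark the spermatocyte sort. Total counts were 20120729 to 25514132 in the Nkapl set, 34167576 to 40010106 in the Sox30 set, 16469667 to 17822056 in the TGdel set and 18155299 to 19569272 in sorted cells. Replicate libraries differed by more than counting noise, with a chi-square per degree of freedom between 1.46 and 45.5.

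Histone RNA differed most between the sets of libraries. Scaled by library totals alone, the 66 genes summed to 113 to 133 CPM in the 5 TGdel-set libraries and to 114 to 174 CPM in the 8 sorted libraries, against 1660 to 2900 CPM in the 10 libraries of the Nkapl and Sox30 sets. In reads this was 1955 to 2353 per TGdel-set library and 2219 to 3212 per sorted library, against 48878 to 98963. Wild-type testes of the same age lay on both sides of this gap. The difference runs between sets that were not compared within a batch, so it is given as a description with no test.

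**Figure D1:**
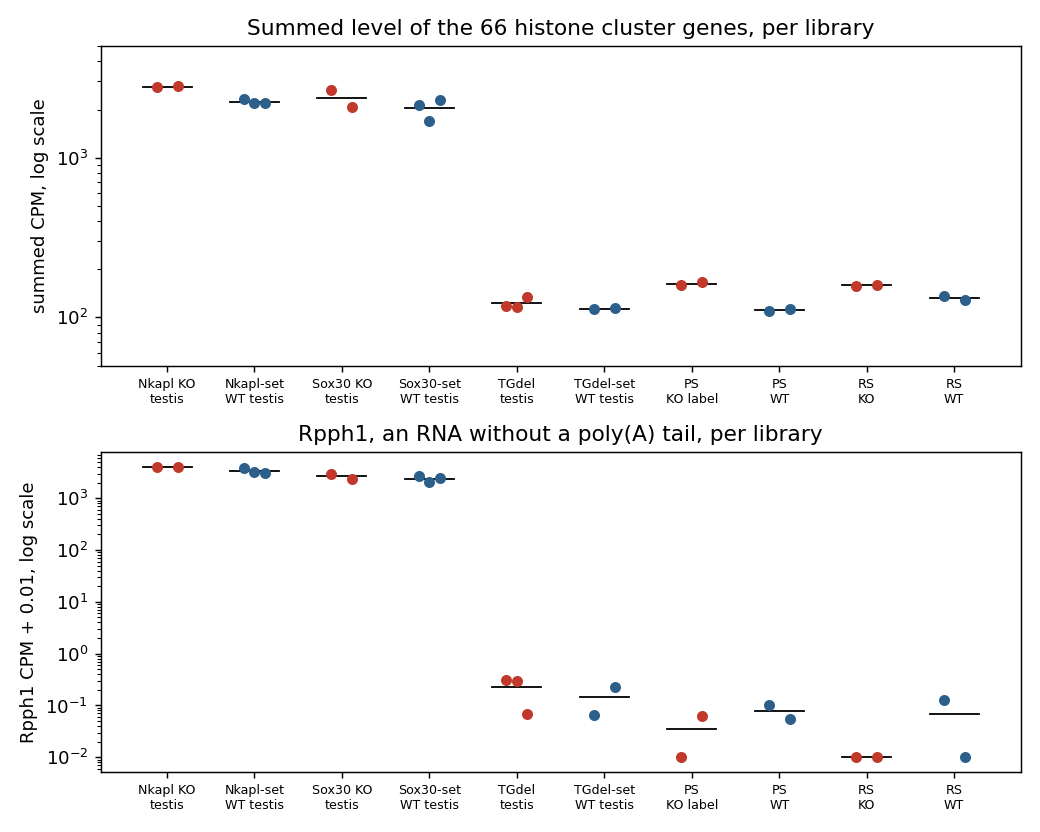
Summed CPM of the 66 genes (top) and CPM plus 0.01 of Rpph1 (bottom) per library, both on log axes. Points are libraries, with mutant or knockout-labelled groups in red and wild-type groups in blue, and bars are group means. The TGdel-set and sorted libraries (PS, spermatocytes, and RS, spermatids) lie far below the Nkapl and Sox30 sets in both panels.

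RNAs known to lack a poly(A) tail moved with this difference. The 4 genes listed for this were chosen after values had been seen. Rmrp, the RNA of RNase MRP, had at most 0.243 CPM in the TGdel set and at most 0.108 CPM in sorted cells, against 617 to 1190 CPM in the Nkapl and Sox30 sets. Rpph1, the RNA of RNase P, had 0.0561 to 0.304 CPM in the TGdel set and at most 0.104 CPM in sorted cells, against 2010 to 4160 CPM. Terc, the telomerase RNA, had 0.674 to 1.07 CPM in the TGdel set and at most 0.165 CPM in sorted cells, against 3.97 to 9.0 CPM. The ribosomal transcript Rn45s had 598 to 4970 CPM in the TGdel set and 150 to 399 CPM in sorted cells, against 27800 to 55300 CPM. The part of the captured RNA classes in the histone difference was not tested. The DNA replication genes, whose mRNAs are tailed, did not show such a gap. Their sum was 2600 to 2610 CPM in TGdel-set wild-type testes, against 2110 to 2140 CPM in Nkapl-set wild-type testes. It was 1620 to 1630 CPM in wild-type spermatocytes and 1550 to 1570 CPM in wild-type spermatids. These sums use edgeR's scaling factors, fitted for each set alone, whereas the values of the 4 RNAs are scaled by library totals.

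The gap differed widely between members. Of the 56 members with a mean of at least 1 CPM in the Nkapl and Sox30 sets, the median member kept 0.592% of that level in the TGdel set and 0.23% in sorted cells. Under 2% was left for 43 members in the TGdel set. All 5 TGdel-set libraries lay below all 10 others for 53 of the 56 members, and all 8 sorted libraries did for 51. The share of all genes that separate in this way was not computed, so these counts have no baseline. The H1 gene Hist1h1a, the most abundant member in the Nkapl set, had 0.361, 0.509 and 0.575 CPM in TGdel testes and 0.676 and 0.661 CPM in their wild type, against 336, 324 and 321 CPM in Nkapl-set wild type.

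The remaining level was at least 10% for 7 members in the TGdel set and for 7 in sorted cells. The H2B gene Hist2h2be (chr3:96221119-96223738, plus strand) stood at 161% in the TGdel set and 150% in sorted cells, and it gave 47.3% to 51.5% of all member counts per TGdel-set library, against 1.17% to 2.02%. Hist1h2al (chr13:51202727-51203065, minus strand), annotated as a processed pseudogene of H2A far from the clusters, stood at 102% and 157%. Hist2h2ab stood at 70.0% and 50.9%, the pseudogene Hist3h2bb-ps at 24.6% and 18.4%, and Hist2h2ac at 10.2% and 10.7%. Hist1h2bc stood at 47.1% in the TGdel set but 2.93% in sorted cells. The order was reversed for Hist1h2bp, at 30.9% and 374%, and for the H4 gene Hist1h4a, at 4.95% and 73.3%.

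By RefSeq gene span, most of the longer members kept more in the TGdel set, while transcript length went both ways. RefSeq gives 7 members a gene span above 1000 bases, up to 37455 bases for Hist1h2be. Of the 5 such members that were measured, 4 kept at least 10% in the TGdel set (Hist2h2be, Hist1h2al, Hist1h2bc and Hist1h2bp), and Hist1h2be kept 2.52%. Of the 51 compact members, 3 kept as much. In sorted cells, Hist2h2be, Hist1h2al and Hist1h2bp kept 150%, 157% and 374%, but Hist1h2bc kept 2.93% and Hist1h2be 0.309%. Hist1h2bp has a stem-loop model and a longer model without it, and Hist2h2be and Hist1h2bc have no match to the stem-loop letters. Other members without a match lay on both sides. Hist2h2ab kept 70.0% in the TGdel set, whereas Hist1h1a kept 0.154%, Hist1h2ak 0.145% and Hist1h4k 0.22%. By longest GENCODE transcript, Hist1h2al with 339 bases kept 102% in the TGdel set. Hist1h1d with 7425 bases kept 0.511%, Hist4h4 with 2863 bases kept 0.197% and Hist1h2ac with 2482 bases kept 0.763%. Other long transcripts went the other way, since Hist2h2be with 2620 bases kept 161%, Hist1h2bc with 1156 bases 47.1% and Hist3h2a with 2146 bases 7.66%. These are counts with no test, and the limits were set after values were seen.

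**Figure D2:**
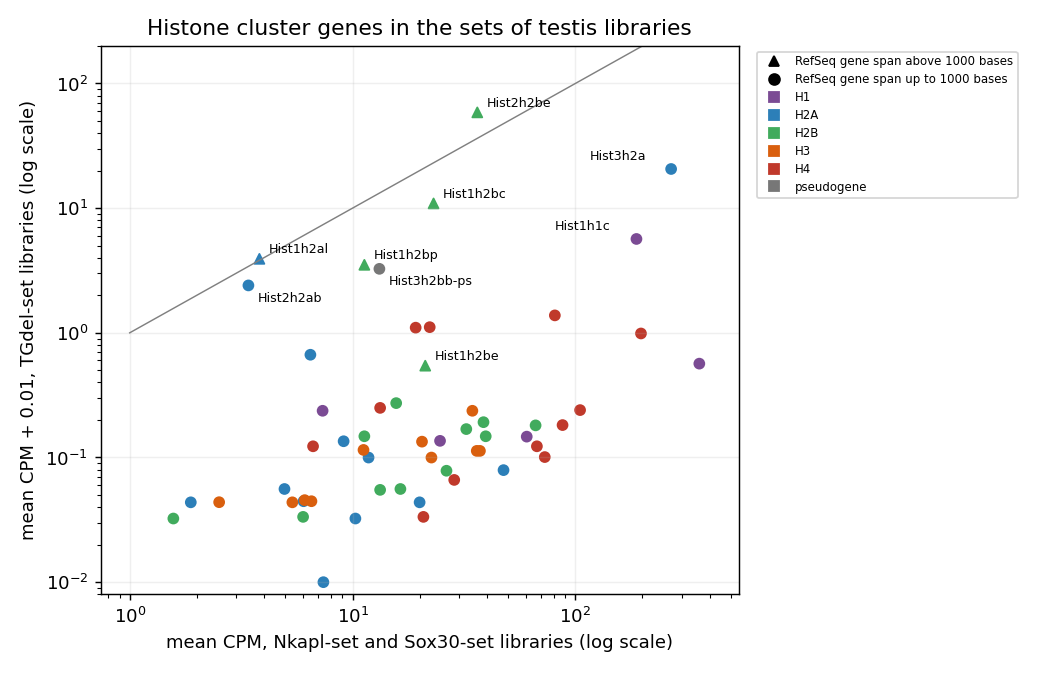
Mean CPM plus 0.01 of each member in the 5 TGdel-set libraries (vertical) against its mean CPM in the 10 Nkapl-set and Sox30-set libraries (horizontal), on log axes, with families in colour. Triangles mark a RefSeq gene span above 1000 bases and the line marks equal levels. Most members lie far below the line, with Hist2h2be above it and Hist1h2al on it.

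Within the Nkapl and Sox30 sets, H4 genes gave 26% to 36.0% of member counts per library, H1 genes 24.5% to 31.0%, H2A genes 16% to 19.1%, H2B genes 14.2% to 16.1% and H3 genes 6.97% to 8.87%. Of these 5 families H3 took the lowest share. Per kilobase of RefSeq span among compact genes, the highest mean levels were 530 CPM per kb for Hist3h2a, 525 for Hist1h4c and 483 for Hist1h1a, followed by 259 for Hist1h1c and 257 for Hist1h4k. Stretches shared with other annotated genes limit single members: the median member shared 37.8% of its 100-base stretches with transcripts of other genes, 5 members shared all of them and 5 shared none. Transcripts that overlap at the same place, on either strand, were included, so these shares do not measure near-identical copies alone. For example, Hist1h1e shared most with Hist1h2be, whose gene span overlaps its own. Hist1h1a and Hist2h2be shared none.

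Nkapl knockout testes carried more histone cluster RNA than wild-type testes. The 66 genes summed to 2750 and 2810 CPM in knockout, against 2320, 2200 and 2190 CPM in wild type, so the groups did not overlap. Of 57 members that passed the low-count filter, 40 rose and 1 fell (edgeR quasi-likelihood test, Benjamini-Hochberg adjusted p under 0.05 over 16937 genes, 2 against 3 libraries). Among all genes tested, 17.8% rose and 26.1% fell (43.9% in either direction). The median log2 fold change was 0.32 over these members and 0.01 over all genes. The rises were small, at log2 0.15 to 0.59. Whole testis cannot tell more cells of a type from more RNA per cell.

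The rises took in every family. Among H1 genes, 4 of 5 rose. Hist1h1a had 417 and 422 CPM in knockout, against 336, 324 and 321 CPM in wild type (log2 0.36 ± 0.03, adjusted p = 1.38e-07). Hist1h1c had 184 and 190 CPM in knockout, against 150, 153 and 144 CPM in wild type (log2 0.33 ± 0.04, adjusted p = 1.7e-06). Neither gene overlapped between groups, but the share of all genes without overlap was not computed.

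Among H2A genes, 8 of 14 tested rose. Hist3h2a, the most abundant, had 300.0 and 292 CPM in knockout, against 237, 227 and 225 CPM in wild type (log2 0.37 ± 0.04, adjusted p = 2.24e-07). Hist1h2ai had the largest called change, with 13.1 and 13.5 CPM in knockout, against 10.2, 7.91 and 8.41 CPM in wild type (log2 0.59 ± 0.12, adjusted p = 0.000414), but it shares 88.4% of its 100-base stretches with other genes. Hist1h2ak had 50.3 and 55.4 CPM in knockout, against 46.3, 44.1 and 44.2 CPM in wild type (log2 0.24 ± 0.06, adjusted p = 0.00194). Hist2h2ab also rose (log2 0.50 ± 0.16, adjusted p = 0.0188), on 6.27 and 5.21 CPM in knockout and 3.59 to 4.68 CPM in wild type.

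Among H2B genes, 11 of 15 rose and 1 fell. Hist1h2bm, whose octamer promoter is shown above, had 93.9 and 93.6 CPM in knockout, against 71.0, 65.9 and 66.1 CPM in wild type (log2 0.47 ± 0.05, adjusted p = 1.79e-07). Hist1h2bj had 49.0 and 46.3 CPM in knockout, against 34.8, 32.1 and 33.4 CPM in wild type (log2 0.51 ± 0.06, adjusted p = 1.17e-06). Hist2h2be, whose level was not lower in the TGdel set, had 39.9 and 39.4 CPM in knockout, inside the 38.2 to 40.1 CPM of wild type (log2 0.02 ± 0.06, adjusted p = 0.823). Hist1h2bp is described separately.

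Among H3 genes, 7 of 10 tested rose. Hist1h3h had 43.6 and 43.7 CPM in knockout, against 33.7, 29.7 and 31.7 CPM in wild type (log2 0.46 ± 0.06, adjusted p = 7.71e-06), but it shares 92.0% of its 100-base stretches with other genes. Hist1h3a (log2 0.46 ± 0.06), Hist1h3b (0.50 ± 0.15) and Hist1h3f (0.25 ± 0.06) rose as well. Among H4 genes, 9 of 12 rose. Hist1h4c had 287 and 278 CPM in knockout, against 251, 226 and 224 CPM in wild type (log2 0.27 ± 0.04, adjusted p = 8.68e-05). Hist1h4k had 147 and 148 CPM in knockout, against 134, 125 and 113 CPM in wild type (log2 0.25 ± 0.05, adjusted p = 0.000924). Hist1h4f had the largest H4 rise, at log2 0.45 ± 0.09.

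**Figure D3:**
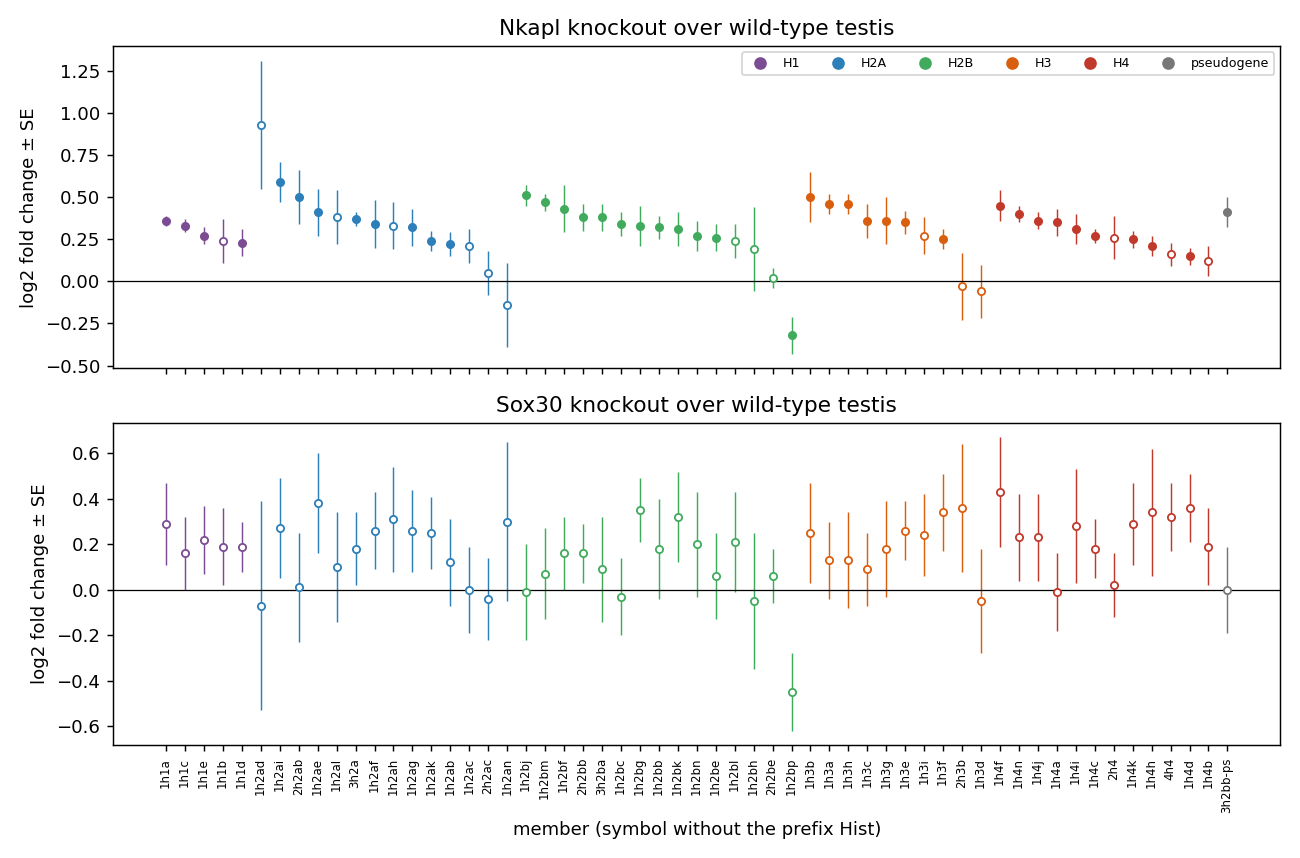
Log2 fold changes ± SE of the 57 members tested, Nkapl knockout over wild type (top) and Sox30 knockout over wild type (bottom), grouped by family. Filled points passed an adjusted p of 0.05 and open points did not. In the Nkapl set 40 members lie above 0 as filled points and Hist1h2bp below, and in the Sox30 set every point is open.

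The rises lay in each of the larger clusters. Nkapl itself lies on chr13:21467047-21468509, and the nearer of the Hist1 blocks on chromosome 13 starts 248716 bases away and the farther 2064003 bases away. The near block had 12 of 18 members tested rising and 1 falling (median log2 0.31), and the far block had 23 of 28 rising (median 0.33). On chromosome 3, where Hist2 lies, 2 of 6 rose (median 0.16), and all 3 Hist3 members on chromosome 11 rose (median 0.38). These differences between blocks were not tested.

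The call depends on the grouping of 1 library. When the file record was used for grouping, so that wild type 3 counted as a knockout, 0 members were called (and 0 of all genes, with 415 at an unadjusted p under 0.05), and the median over members was 0.19. With that library left out, 27 members rose, where 12.7% of all genes rose. In wild type 3, the summed level of 2190 CPM lay beside the 2200 CPM of wild type 2. DESeq2 called 26 members and 1946 of all genes higher. Without knockout library 2, 23 members rose, where 10.5% of all genes rose.

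Other RNA classes and cell types moved with the rise. Rn45s rose by log2 0.38 ± 0.03 (adjusted p = 1.44e-08), Rmrp by 0.33 ± 0.09 (adjusted p = 0.00449) and Rpph1 by 0.25 ± 0.06 (adjusted p = 0.00274). Terc, the fourth of these genes, had 8.32 and 6.27 CPM in knockout, against 7.81, 6.58 and 5.99 CPM in wild type, which overlap (log2 0.09 ± 0.15, adjusted p = 0.664). Markers of undifferentiated spermatogonia rose in 6 of 12 cases (summed 319 CPM in both knockout libraries, against 267 to 287 CPM in wild type) and those of Sertoli cells in 16 of 23, with 1 falling (3350 to 3480 CPM, against 2870 to 2990 CPM). Of 13 markers of differentiating spermatogonia and preleptotene spermatocytes, 7 rose and 2 fell (median log2 0.25), but their summed level was not higher, at 1080 to 1110 CPM in knockout, against 1120 to 1130 CPM in wild type. Pachytene markers fell in 14 of 15 cases (6050 to 6180 CPM, against 7590 to 7640 CPM) and round spermatid markers in 18 of 19 (317 to 345 CPM, against 675 to 771 CPM, with 3 of 21 at 0 counts in knockout). Their part in the histone rise was not tested.

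Factors that make and process histone mRNA were mixed. Of 30 genes on that list, 7 rose and 5 fell (median log2 0.01). Upf1, a helicase of mRNA decay, rose by 0.37 ± 0.04 (adjusted p = 2.06e-07). Ncbp1 of the cap-binding complex fell by 0.44 ± 0.04 (adjusted p = 2.91e-08), the nucleoporin gene Nup98 fell by 0.37 ± 0.04 (adjusted p = 2.47e-07) and Coil, the coilin gene, fell by 0.30 ± 0.04 (adjusted p = 6.83e-06). Slbp had a log2 difference of 0.03 ± 0.04 (adjusted p = 0.62) and Npat, the S-phase activator of histone genes, one of 0.06 ± 0.06 (adjusted p = 0.406). Of 40 DNA replication and S phase genes, 13 rose and 4 fell (median 0.10). Mcm3 of the replicative helicase rose by 0.39 ± 0.05 (adjusted p = 3.79e-06) and Hells by 0.24 ± 0.04 (adjusted p = 7.21e-05), while Chaf1a, a chaperone subunit that deposits histones on new DNA, fell by 0.35 ± 0.04 (adjusted p = 1.28e-06). Of 11 replication-independent histone variants, 3 rose and 1 fell, and of 13 histone chaperones 3 rose and 2 fell.

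In Sox30 knockout testes, histone cluster RNA overlapped with wild type. The sums were 2640 and 2080 CPM in knockout, against 2130, 1700 and 2310 CPM in wild type. Of 57 members tested, 0 were called by edgeR (adjusted p under 0.05, 2 against 3 libraries) and 0 by DESeq2, with 3 at an unadjusted p under 0.05, where 2.42% of all 17816 genes were called (0.505% higher and 1.92% lower). The median log2 difference was 0.19 over members and 0.00 over all genes, and 47 of 57 lay above 0. Hist1h1a had 455 and 342 CPM in knockout, against 337, 265 and 373 CPM in wild type (log2 0.29 ± 0.18, adjusted p = 0.917). Hist1h4c had 166 and 135 CPM in knockout, against 142, 119 and 139 CPM in wild type. In both genes the second knockout library lay within the wild-type range. The knockout libraries of this set also differed the most from each other of all replicate pairs, with a chi-square per degree of freedom of 45.5. Of the 30 histone mRNA factors and 40 replication genes, 0 were called, with 0 and 1 at an unadjusted p under 0.05. Whether the Nkapl and Sox30 effects differ was not tested.

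In TGdel testes, only 15 members passed the filter, and 0 were called by edgeR or DESeq2, with 2 at an unadjusted p under 0.05, where 1.25% of all 16011 genes were called (0.2% higher and 1.05% lower). The sums were 118, 117 and 135 CPM in TGdel, against 113 and 114 CPM in wild type. Hist2h2be, the largest contributor to this sum, had 60.7, 55.2 and 65.9 CPM in TGdel, against 53.8 and 57.9 CPM in wild type (log2 0.12 ± 0.09, adjusted p = 0.628). Hist3h2a had 20.4, 21.3 and 25.4 CPM in TGdel, against 18.1 and 18.0 CPM in wild type (log2 0.31 ± 0.13, edgeR unadjusted p = 0.0371, adjusted p = 0.284). Its groups did not overlap, but the share of all genes without overlap was not computed. At 0.783 to 1.27 summed CPM in TGdel and 0.676 to 0.826 CPM in wild type, no H3 gene had enough counts to be tested. Of the 30 histone mRNA factors and 40 replication genes, 0 were called, with 2 and 5 at an unadjusted p under 0.05.

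Hist1h2bp was the only member called lower in the Nkapl set. This H2B gene lies on chr13:21787461-21789213 (plus strand) in the near block. It had 9.87 and 9.19 CPM in Nkapl knockout testes, against 10.7, 13.3 and 11.6 CPM in wild type (log2 -0.32 ± 0.11, edgeR adjusted p = 0.03). In Sox30 knockout testes it had 9.21 and 10.1 CPM, against 13.9, 14.5 and 11 CPM in wild type (log2 -0.45 ± 0.17, unadjusted p = 0.031, adjusted p = 0.432). In TGdel testes it had 1.87, 2.66 and 3.28 CPM, against 5.80 and 3.91 CPM in wild type (log2 -0.90 ± 0.29, unadjusted p = 0.0134, adjusted p = 0.182). In the Sox30 set 10 of 57 members and in the TGdel set 7 of 15 had a log2 difference below 0, Hist1h2bp among them. Its groups did not overlap in any of the 3 sets, but the share of all genes without overlap was not computed. Only the difference in the Nkapl set passed the test. That call was lost with library-total scaling, the replicate number as a block, DESeq2 and either grouping that moves or drops wild type 3. It was also lost without any 1 of 4 of the 5 libraries of that set. Round spermatid markers, which fell in the Nkapl set, were lower in 19 of 21 cases in Sox30 knockout (9 called) and in 18 of 19 cases in TGdel (0 called). Their part in the Hist1h2bp values was not tested.

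**Figure D4:**
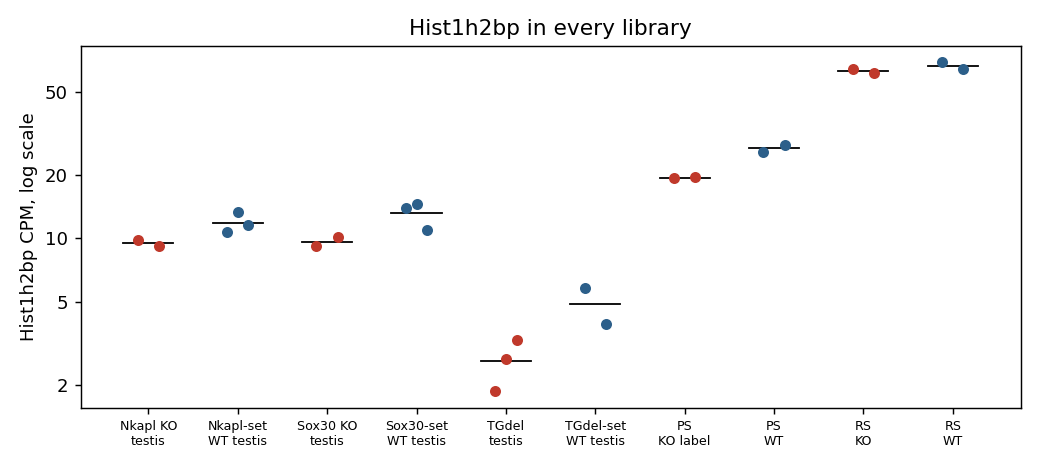
Hist1h2bp CPM in every library, on a log axis, with mutant or knockout-labelled groups in red, wild-type groups in blue and bars at the group means. Each mutant testis group lies below its wild-type group, and spermatids (RS) lie above spermatocytes (PS).

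Sorted cells placed Hist1h2bp highest in spermatids. In wild-type cells it had 68.8 and 63.8 CPM in spermatids, against 25.8 and 27.8 CPM in spermatocytes (log2 1.31 ± 0.07, adjusted p = 1.41e-16). In cells labelled knockout it had 63.7 and 61.4 CPM in spermatids, against 19.4 and 19.5 CPM in spermatocytes (log2 1.69 ± 0.07, adjusted p = 1.31e-18). Only 17 members passed the filter in the sorted libraries. Hist2h2be, Hist1h2bp and Hist1h4a together gave 83.6% to 84.2% of member counts in wild-type spermatids and 76.5% to 77.8% in wild-type spermatocytes.

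Among these 17, 6 rose and 6 fell in wild-type spermatids relative to spermatocytes, where 77.5% of all 15805 genes were called (41.1% higher and 36.4% lower). Besides Hist1h2bp, Hist1h4a rose, with 25.5 and 22.7 CPM in spermatids, against 9.19 and 9.97 CPM in spermatocytes (log2 1.33 ± 0.10, adjusted p = 9e-13). Hist1h3a rose from a low level, with 2.98 and 3.82 CPM in spermatids, against 1.26 and 1.68 CPM in spermatocytes (log2 1.20 ± 0.23, adjusted p = 2.31e-05). Hist1h2ag (1.66 ± 0.42), Hist1h1a (1.21 ± 0.33) and Hist1h2bj (1.16 ± 0.36) rose as well, on under 2 CPM. The members that rose all belong to the Hist1 cluster.

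Among the falls, Hist2h2be had the smallest p, with 20.6 and 20.8 CPM in wild-type spermatids, against 49.3 and 50 CPM in spermatocytes (log2 -1.26 ± 0.07, adjusted p = 9.88e-16). Hist3h2a had 4.26 and 4.92 CPM in spermatids, against 8.86 and 7.83 CPM in spermatocytes (log2 -0.86 ± 0.14, adjusted p = 3.91e-06), and the neighbouring pseudogene Hist3h2bb-ps fell by 1.86 ± 0.25. Hist1h1c (-1.44 ± 0.61), Hist1h2bc (-1.27 ± 0.44) and Hist2h2ab (-0.78 ± 0.30) also fell, on under 2 CPM. With DESeq2, and without wild-type spermatid library 2, the falls numbered 3. Scaling by library totals put the median of all genes at log2 -0.285, against 0.048 here, and gave 6 rises and 9 falls, where 29.0% of all genes rose and 50.3% fell.

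The same comparison in cells labelled Nkapl knockout had 7 rises and 6 falls among the 17, where 77.0% of all genes were called (37.7% higher and 39.3% lower), and 10 members were called in both. Hist2h2be had 41.4 and 42.2 CPM in knockout spermatids, against 95.7 and 102 CPM in spermatocytes labelled knockout (log2 -1.24 ± 0.06, adjusted p = 3.11e-17). Hist1h2bj (1.78 ± 0.40), Hist1h3a (1.63 ± 0.22), Hist1h4a (1.37 ± 0.10), Hist1h2ag (1.35 ± 0.45), Hist1h1a (1.27 ± 0.31) and Hist1h4c (0.82 ± 0.29) rose. Hist3h2bb-ps (-1.61 ± 0.22), Hist2h2ab (-1.49 ± 0.24), Hist1h4i (-1.47 ± 0.47), Hist1h4h (-0.82 ± 0.37) and Hist3h2a (-0.75 ± 0.14) fell.

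Among the histone mRNA factors, 9 of 30 rose and 14 fell in wild-type spermatids (median log2 -0.16), and 5 of 40 replication genes rose and 24 fell (median -0.45). Of all genes 41.1% rose and 36.4% fell (77.5% in either direction). The share of either list called in either direction lay near that of all genes. By direction the lists differed from all genes, since in both lists more genes fell than rose, most clearly among the replication genes. Ccne2, a cyclin of S-phase entry, fell by 3.02 ± 0.12 and its kinase gene Cdk2 fell by 2.92 ± 0.08. Slbp fell by 0.73 ± 0.06 (adjusted p = 3.72e-12). Upf1 fell by 1.96 ± 0.06 and Srrt by 1.39 ± 0.05. Among replication genes, Dut, which removes dUTP, fell by 3.29 ± 0.11, and Gins2 fell by 1.09 ± 0.09, while Chaf1a rose by 0.53 ± 0.05.

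**Figure D5:**
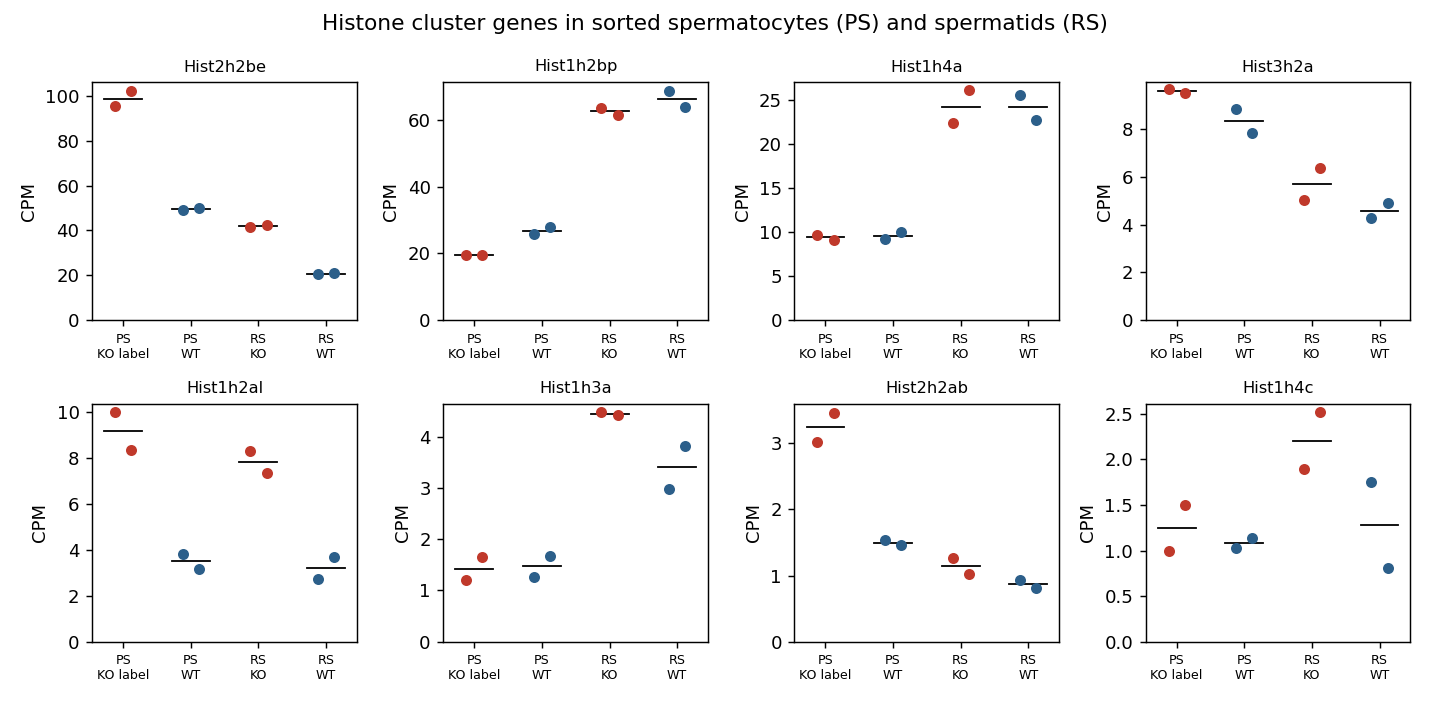
CPM of 8 members in sorted spermatocytes (PS) and spermatids (RS), with libraries labelled knockout in red, wild type in blue and bars at the group means. Hist2h2be and Hist1h2al are higher in both knockout-labelled groups than in wild type, and Hist1h2bp and Hist1h4a are higher in spermatids.

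Nkapl knockout spermatids had 3 members higher and 0 lower than wild type among the 17, where 29.0% of all genes rose and 31.0% fell (60.0% called). Hist2h2be had 41.4 and 42.2 CPM in knockout, against 20.6 and 20.8 CPM in wild type (log2 1.01 ± 0.08, adjusted p = 1.53e-12). Hist1h2al had 8.31 and 7.34 CPM in knockout, against 2.74 and 3.70 CPM in wild type (log2 1.28 ± 0.17, adjusted p = 2.03e-07). Hist1h4c had 1.89 and 2.52 CPM in knockout, against 1.75 and 0.810 CPM in wild type (log2 0.78 ± 0.30, adjusted p = 0.0248), and this call was lost with DESeq2 and without knockout library 2 or wild-type library 2. The median over the 17 members was 0.31, against 0.03 over all genes. With library totals, which put the median of all genes at 0.139, 5 members rose, where 37.5% of all genes rose.

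Spermatocytes labelled knockout had 3 members higher and 1 lower among the 17, where 33.6% of all genes rose and 25.7% fell (59.2% called). Hist2h2be had 95.7 and 102 CPM in libraries labelled knockout, against 49.3 and 50 CPM in wild type (log2 0.99 ± 0.06, adjusted p = 2.01e-14). Hist1h2al had 10 and 8.37 CPM in libraries labelled knockout, against 3.83 and 3.19 CPM in wild type (log2 1.39 ± 0.15, adjusted p = 5.25e-09). Hist2h2ab had 3.02 and 3.46 CPM in libraries labelled knockout, against 1.54 and 1.46 CPM in wild type (log2 1.11 ± 0.21, adjusted p = 4.92e-05). Hist1h2bp was lower, with 19.4 and 19.5 CPM in libraries labelled knockout, against 25.8 and 27.8 CPM in wild type (log2 -0.46 ± 0.08, adjusted p = 1.34e-05). None of these 4 overlapped between groups, but the share of all genes without overlap was not computed.

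The difference in Hist1h2bp between knockout-labelled and wild-type libraries was not the same in both cell types. It differed by log2 0.38 ± 0.10 (spermatids minus spermatocytes, edgeR quasi-likelihood test, adjusted p = 0.00746). The spermatid difference was -0.08 ± 0.06 (adjusted p = 0.265). Nkapl went against the spermatocyte labels, so a knockout effect is not established in those cells. No other member of the 17 was called in this test, where 25.5% of all genes were (9.02% higher and 16.4% lower). For Hist2h2be and Hist1h2al the effects in the 2 cell types are given side by side above.

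Cell markers also differed between these libraries. Round spermatid markers were lower in 20 of 21 cases both in knockout spermatids (5550 to 5580 CPM, against 11600 to 11800 CPM in wild type) and in spermatocytes labelled knockout (2270 to 2300 CPM, against 4100 to 4290 CPM). Leydig cell markers were higher in 9 of 10 cases in knockout spermatids (37.1 to 39.5 CPM, against 16.2 to 17.2 CPM) and in 7 of 10 in spermatocytes labelled knockout, with 1 lower (84.8 to 91.1 CPM, against 61.6 to 62.8 CPM). Macrophage and blood markers were higher in 9 of 11 cases and lower in 1 in knockout spermatids (53.2 to 54.2 CPM, against 25.2 to 25.3 CPM). Summed peritubular myoid markers were 177 to 181 CPM in knockout spermatids, against 340.0 to 345 CPM in wild type, and 78.9 to 82.4 CPM in spermatocytes labelled knockout, against 146 to 148 CPM. Only 4 of the 10 genes listed had an unadjusted p under 0.05 in spermatids, and 3 in spermatocytes. The sums therefore do not show a fall of the whole list. Sertoli markers were lower in 13 of 23 cases in spermatocytes labelled knockout (366 to 371 CPM, against 501 to 518 CPM). Their part in the member values was not tested. Among the 30 histone mRNA factors, 17 rose and 4 fell in spermatocytes labelled knockout and 14 rose and 6 fell in knockout spermatids, beside the all-gene shares given above. Upf1 rose by 0.95 ± 0.05 in spermatocytes labelled knockout and by 0.70 ± 0.06 in knockout spermatids, Srrt by 0.71 ± 0.05 and 0.80 ± 0.05, and Cdk2 by 0.58 ± 0.06 and 0.79 ± 0.09. Dis3l2, an exonuclease gene, fell by 0.67 ± 0.07 in spermatocytes and fell by 0.54 ± 0.06 in spermatids. Replication genes rose in 22 of 40 cases and fell in 3 in spermatocytes labelled knockout, and rose in 20 and fell in 4 in knockout spermatids. Cdc45 of the replicative helicase rose by 0.72 ± 0.06 in spermatocytes labelled knockout and by 1.19 ± 0.07 in knockout spermatids.

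The excluded testis-specific histone genes showed the same gap between sets. Hist1h2ba, a testis-specific H2B gene, had 1020 and 1100 CPM in Nkapl knockout testes, against 966, 866 and 881 CPM in wild type (log2 0.23 ± 0.04, adjusted p = 0.000384), but only 3.31, 3.39 and 3.51 CPM in TGdel testes and 2.93 and 3.19 CPM in their wild type. Its H2A neighbour Hist1h2aa rose by log2 0.30 ± 0.04 in Nkapl knockout testes (adjusted p = 1.93e-06), and the linker gene Hist1h1t rose by 0.13 ± 0.03 (adjusted p = 0.00304). In sorted cells Hist1h1t had 3.74 and 4.68 CPM in wild-type spermatids, against 1.77 and 1.87 CPM in wild-type spermatocytes. It was lower in knockout spermatids (log2 -0.46 ± 0.19, adjusted p = 0.0381) and in spermatocytes labelled knockout (-0.70 ± 0.26, adjusted p = 0.0236).

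Outside the members, the genes whose level across the 10 Nkapl-set and Sox30-set libraries was most like the summed member level were Hist1h2aa, Wfdc10, Mcm3, Mapk14 and Hexim1. Their Pearson r of log2(CPM + 1) was 0.98, 0.978, 0.977, 0.968 and 0.967. A mean of at least 1 CPM was reached by 15342 genes, a number that includes the members, and those outside the members were compared. Of the other genes looked up, Rmrp had r = 0.918, Rpph1 0.793, the proliferation marker Mki67 0.677, Slbp 0.637 and the replication gene Pcna -0.31. These values are a description over 10 libraries that share set, genotype and scaling, and all other testis libraries were left out because they stand apart.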

How the data were processed

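Counts per gene were deposited by the authors for whole testes and sorted spermatocytes and spermatids. The submitters' processing notes name HISAT2 2.1.0, HTSeq, DESeq2 and the build mm10, and the annotation and strand setting were not given there. Of 26 files, 23 were distinct libraries, since 3 pairs held identical values. The heading of 15 testis files points to a different sample than the file record, and libraries were grouped by heading. Summary lines (18.8% to 24.6% of reads in sorted cells) were left out. The members and gene lists were chosen with earlier results of these data known. Separate models for the 3 testis sets and 1 model for the 8 sorted libraries used edgeR 4.0.16 in R 4.3.3 (filterByExpr, TMM, quasi-likelihood test, Benjamini-Hochberg adjusted p under 0.05 over all genes tested), after tests on simulated data. Alternatives were other scaling, a filter of 10 counts, DESeq2 1.42.0, the replicate number as a block, each library left out, and other groupings of conflicting libraries. Named genes were called members by size of change, up to 8 in each direction, the 2 most abundant per family, the leading list genes and the excluded genes. Stem-loops came from GENCODE vM21 and promoters from RefSeq (GRCm38.p6). Counting limits cover counting error only.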

Additional observations from a re-analysis of the deposited data

Results flagged for a closer look

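Hist1h2bp was marked because the difference by knockout label was not the same in the sorted cell types by a direct test. Its log2 change was -0.08 ± 0.06 in Nkapl knockout spermatids and -0.46 ± 0.08 in spermatocytes labelled knockout, a difference of 0.38 ± 0.10 (edgeR quasi-likelihood test, adjusted p = 0.00746, 2 libraries per group). Nkapl went against its label in the spermatocyte libraries, so the direction is that of the labels.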

How the results depend on the processing

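In the Nkapl set, 40 members rose and 1 fell. DESeq2 gave 26 rises, leaving out 1 library gave 23 to 43, and grouping by file record gave 0. The 1 fall, Hist1h2bp, became 0 with library totals, with the replicate block, with DESeq2, with concordant libraries only and by file record, and was 0 to 1 with 1 library left out. Replicate numbers did not pair the samples (correlations of deviations between -0.04 and 0.05, except 0.34 for Sox30 replicate 2). With the replicate number as a block, Sox30 knockout had 14 members higher and 1 lower, against 0 and 0 without it, while 2.01% of all genes were higher and 7.69% lower with the block, against 0.505% and 1.92% without it. Library totals gave 5 rises in knockout spermatids in place of 3. In wild-type spermatids against spermatocytes, DESeq2 gave 3 falls in place of 6, and leaving out 1 library gave 3 to 6. With genes of at least 10 counts, an alternative chosen after seeing the data, the difference of knockout-label effects had 1 member lower, Hist3h2ba. By library totals the mean summed CPM was 2860 in Nkapl knockout, 115 in TGdel-set wild type, 170.0 in spermatocytes labelled knockout, 125 in wild-type spermatocytes, 152 in knockout spermatids and 118 in wild-type spermatids.

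The 42 reversed values were of genes not called in the main test, and some were larger than the value they reversed. By file record, TGdel gave -0.05 for Nkapl, -0.08 for Sox30, -0.02 for Hist1h1c, -0.13 for Hist3h2a and -0.05 for Hist2h2be. In spermatocytes labelled knockout, Hist1h1c was -0.01 with RLE scaling, -0.07 with library totals and -0.01 with DESeq2. In knockout spermatids, Hist1h2bp was 0.03 with library totals and Hist1h4a -0.0015 with the filter of 10 counts. Between wild-type cells, library totals gave -0.31 for Nkapl and -0.09 for Hist1h4c. With 1 library left out, values spanned -0.19 to 0.11 (Nkapl), -0.16 to 0.27 (Hist1h2bm), -0.09 to 0.19 (Hist2h2be) and -0.12 to 0.36 (Hist1h3h) in the Sox30 set, and -0.29 to 0.07 for Hist1h4c in the TGdel set. In spermatocytes they spanned -0.26 to 0.40 (Hist1h1c), -0.29 to 0.18 (Hist1h3a), -0.11 to 0.03 (Hist1h4a) and -0.13 to 0.47 (Hist1h4c), and in spermatids -0.12 to 0.09 (Hist1h4a). Between wild-type cells they spanned -0.05 to 0.05 (Nkapl), -0.41 to 0.03 (Hist1h2al) and -0.47 to 0.64 (Hist1h4c), and between cells labelled knockout -1.09 to 0.07 (Hist1h1c). The causes were not tested. Where a group was left with 1 library, it was assumed to vary like the other groups of its fit. In the TGdel set and sorted cells, 15 and 17 members had enough counts for a test, so most members cannot be compared there.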
